A study of Homo sapiens with 6 samples.

Results

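The genes described here are 10 human members of the Toll-like and interleukin-1 receptor pathway, namely the co-receptor CD14, the receptors TLR2, TLR3, TLR4 and TLR6, the adaptor MYD88 and the kinases IRAK1, IRAK2, IRAK3 and IRAK4. They were chosen by name, as all probe sets (groups of short probes for 1 transcript) that the array annotation assigns to 1 of these genes alone. This gave 20 probe sets of 54613 tested, for 9 of the 10 genes, and IRAK4 was not analysed here. They were compared between 3 arrays of MCF10A cells with C/EBPbeta-2, one protein form made from the CEBPB gene, and 3 arrays of MCF10A cells alone, called control. MCF10A is an established breast epithelial line that does not form tumours, and all samples derive from it. All were grown with horse serum, insulin, hydrocortisone, epidermal growth factor and cholera toxin and received no treatment. The labels call the samples of each group biological replicates. The sources used here give neither the way C/EBPbeta-2 was introduced nor what separated the replicates, so p-values cover only the spread among these samples. Values are log2 of the deposited intensities, given in the order of replicates 1, 2 and 3, and differences are C/EBPbeta-2 minus control.

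Toll-like receptors recognise microbial and damage-derived molecules, and interleukin-1 receptors recognise cytokines, yet both carry the same TIR domain inside the cell and use the same signalling machinery. The adaptor MyD88 joins an activated receptor to kinases of the IRAK family, which pass the signal to the ubiquitin ligase TRAF6 and on to NF-kappaB and the MAP kinases. In epithelia this machinery senses microbes at the surface and also lets the cells answer to their own interleukin-1.

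Array medians were 4.46 to 4.56 (log2), and with no detection calls used here they serve as a mark of low signal. CEBPB, probe set 212501_at, went against the labels, with 10.29, 10.50 and 11.38 under C/EBPbeta-2 and 11.27, 11.38 and 11.37 under control (difference -0.62, SE 0.29, limma adjusted p = 1.00). Whether that probe set reads the introduced transcript is not known here, and the group names are those of the labels throughout. Over 27 control probe sets, the poly-A spike-in RNA was low on 2 arrays, at 3.73 (C/EBPbeta-2 replicate 2) and 3.86 (control replicate 1), where the remaining 4 had 6.75 to 7.65. On the first principal component (44.1% of the variance), 2 further arrays lay at the low end, C/EBPbeta-2 replicate 1 at -64.1 and control replicate 2 at -93.9. The 2 low spike-in arrays lay at the high end, at 61.8 (C/EBPbeta-2 replicate 2) and 60.8 (control replicate 1). Replicate 3 lay between, at 5.3 for C/EBPbeta-2 and 30.0 for control. Each of these pairs holds 1 array of each group. Of the basal epithelial markers KRT5, KRT14, CDH3, ITGB4, LAMB3 and EGFR, all 6 lay above the array median on all 6 arrays, and KRT14 fell with C/EBPbeta-2 (difference -3.00, limma adjusted p = 0.0347).

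No member passed the test used across all probe sets. With limma and Benjamini-Hochberg adjustment, 0 of the 20 probe sets were called at an adjusted p under 0.05 (smallest 0.430), where 0.0659% of all probe sets were called, 0.0275% higher and 0.0385% lower. At an unadjusted p under 0.05 there were 2 of 20, CD14 and TLR2, both higher with C/EBPbeta-2, where 3.98% of all probe sets passed in either direction and 1.92% in that one. The median difference of the 20 was 0.01, with a median size of 0.13, and over all probe sets the median size was also 0.13. The groups did not overlap in 3 of 20, again all higher, against 7.62% of all probe sets in either direction and 3.87% in that one. With 3 arrays a group, the number of arrays limits the precision, and the 95% intervals of the 20 differences show what sizes the fit leaves possible. For probe sets below the array median these are sizes of signal, and how far they follow the RNA was not tested.

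**Figure D1:**
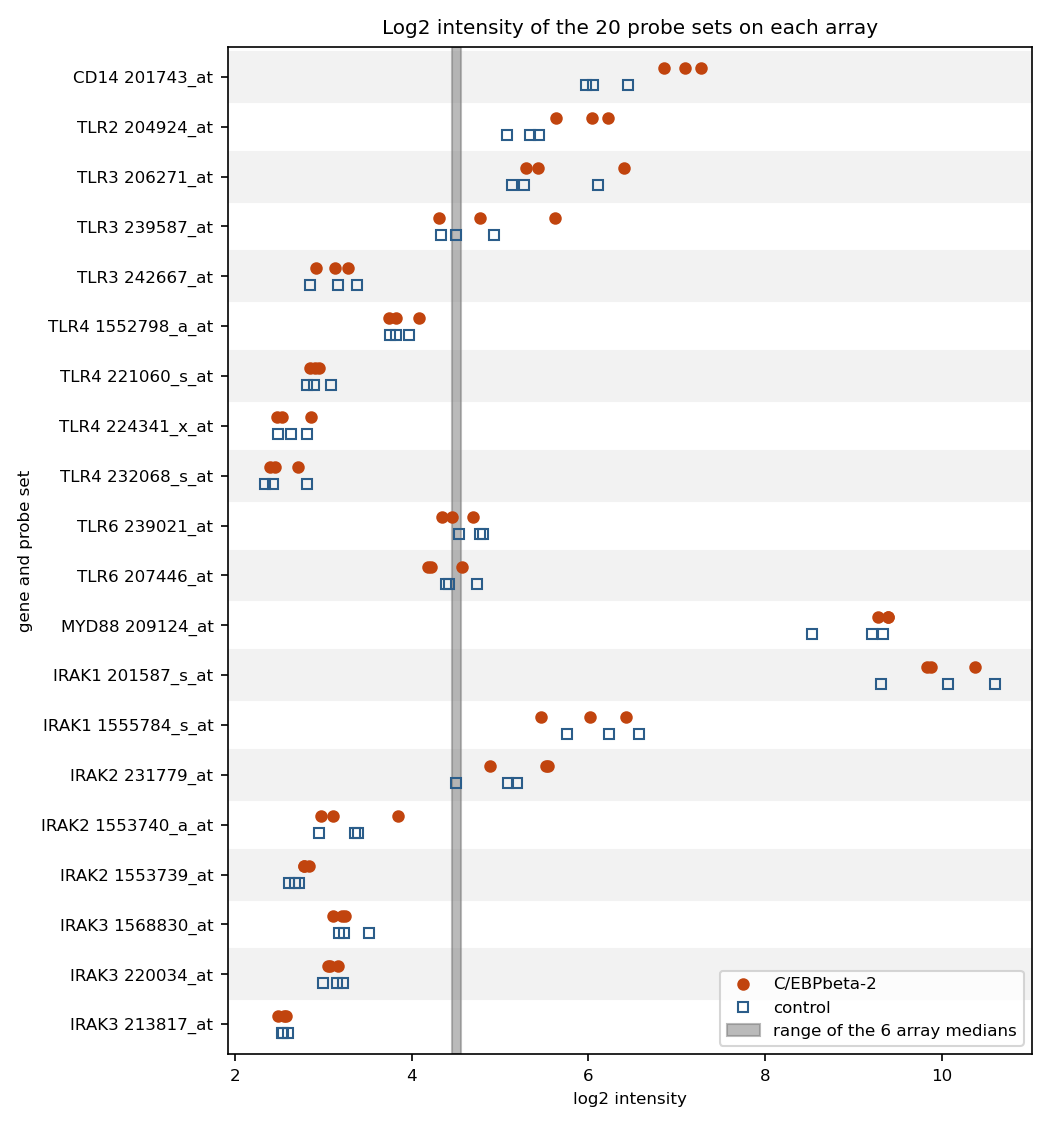
Log2 intensity of the 20 member probe sets (rows) on each array, with C/EBPbeta-2 arrays as filled circles above control arrays as open squares, and the range of the array medians (4.46 to 4.56) as a grey band. CD14 and TLR2 are the rows to the right of the band in which the groups do not overlap, and the TLR4 and IRAK3 rows lie wholly to its left.

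CD14, a surface protein that hands bacterial lipopolysaccharide and lipopeptides to Toll-like receptors, had the largest difference among the members. Its probe set 201743_at read 7.28, 6.85 and 7.09 on the C/EBPbeta-2 arrays and 6.05, 5.98 and 6.45 on the control arrays. Every C/EBPbeta-2 array was above every control array. The means were 7.08 ± 0.21 with C/EBPbeta-2 and 6.16 ± 0.26 in control (SD, n = 3 each), a difference of 0.92 (SE 0.20, 95% interval 0.44 to 1.39), or 1.89-fold. This was larger than the spread between arrays of a group, but it did not pass the test over all probe sets (limma adjusted p = 0.430) or over all genes (limma adjusted p = 0.260). The difference was 0.81 between the 2 arrays of low spike-in signal and 0.97 among the 4 others. Leaving out 1 array at a time gave 0.81 to 1.06. In bulk RNA, more cells with CD14 and more CD14 RNA per cell cannot be told apart.

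CD14 is widely used as a marker of monocytes, so the other leukocyte markers are given beside it. Of 12 listed, 11 were measured and 0 were called (1 at an unadjusted p under 0.05, LAPTM5). PTPRC, LYZ, CD163, TYROBP, SPI1 and MS4A7 lay below the array median on all 6 arrays. CSF1R, AIF1 and LAPTM5 lay above it on all 6, and ITGAM and FCER1G on 1 each. Of the 11, 4 were higher and 7 lower with C/EBPbeta-2, with a median difference of -0.04. Their summed intensity was 222 to 357 on the C/EBPbeta-2 arrays and 453 to 546 on the control arrays. That gap came from LAPTM5, which had means of 6.61 with C/EBPbeta-2 and 8.23 in control (limma adjusted p = 0.507). Without LAPTM5 the other 10 summed to 169 to 191 on the C/EBPbeta-2 arrays and 168 to 221 on the control arrays, so the groups overlapped.

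TLR2, the receptor of bacterial lipopeptides, read higher with C/EBPbeta-2 in the same way, at a smaller size. Its probe set 204924_at read 5.63, 6.23 and 6.05 on the C/EBPbeta-2 arrays and 5.08, 5.34 and 5.44 on the control arrays. The groups did not overlap, though the lowest C/EBPbeta-2 array lay close to the highest control array. The means were 5.97 ± 0.31 and 5.28 ± 0.19 (SD, n = 3 each), a difference of 0.68 (SE 0.21, 95% interval 0.18 to 1.18), or 1.61-fold, which did not pass the test (limma adjusted p = 0.838). It was 1.15 between the 2 arrays of low spike-in signal and 0.45 among the 4 others, so its size varied with which arrays were used while its sign did not.

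The 250 bases before the transcription starts of CD14 and TLR2 are shown, from RefSeq on GRCh38.p14, because these were the members with the largest differences and C/EBP factors bind DNA. Capitals mark TTGCAA, a short form in which the C/EBP half-sites TTGC and GCAA overlap.
CD14, chr5:140633176-140633425, minus strand: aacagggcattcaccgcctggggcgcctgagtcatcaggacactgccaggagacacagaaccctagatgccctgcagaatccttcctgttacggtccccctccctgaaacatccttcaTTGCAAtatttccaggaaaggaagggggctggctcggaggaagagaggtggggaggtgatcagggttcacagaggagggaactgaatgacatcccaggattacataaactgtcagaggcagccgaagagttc
TLR2, chr4:153684030-153684279, plus strand: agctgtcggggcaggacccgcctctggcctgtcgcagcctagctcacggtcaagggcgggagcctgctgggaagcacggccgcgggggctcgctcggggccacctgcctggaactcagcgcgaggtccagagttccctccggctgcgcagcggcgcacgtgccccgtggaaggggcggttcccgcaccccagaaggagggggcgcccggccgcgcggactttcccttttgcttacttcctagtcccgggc
Of 2 motifs searched on both strands of this window, TTGCAA and TTGCNNAA, the CD14 promoter held TTGCAA, from 132 to 127 bases before the start, and the TLR2 promoter held neither. The motifs overlap where TTGCAA is followed by a further pair of A. All 10 members matched the promoter table. TTGCAA was in 1 of them and in 4.73% of all 35116 promoters. The longer C/EBP form TTGCNNAA was in 2 members, TLR3 and IRAK4, and in 9.05% of all promoters. A match shows that these letters are present and no more.

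TLR3, an endosomal receptor of double-stranded RNA that signals through the adaptor TICAM1 instead of MyD88, was split by array rather than by group. Its brightest probe set 206271_at read 5.30, 6.40 and 5.43 on the C/EBPbeta-2 arrays and 6.11, 5.14 and 5.28 on the control arrays. The highest array of each group was the one with low spike-in signal. Probe set 239587_at had the same order at the top, with 4.31, 5.62 and 4.77 on the C/EBPbeta-2 arrays and 4.93, 4.33 and 4.50 on the control arrays. Probe set 242667_at lay below the array median throughout, at 2.92 to 3.28 with C/EBPbeta-2 and 2.85 to 3.38 in control, and did not follow this pattern. Between groups the differences were 0.20 (SE 0.38), 0.31 (SE 0.35) and -0.02 (SE 0.20), each with a limma adjusted p of 1.00. Without C/EBPbeta-2 replicate 2, that of 206271_at was -0.14 and that of 239587_at was -0.046.

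With a term for the spike-in level, the standard error of 206271_at was 0.15 and that of 239587_at 0.21, at the same differences, and neither was called (limma adjusted p = 1.00). The mean of the 2 low spike-in arrays exceeded that of the other 4 by 0.97 in 206271_at and by 0.80 in 239587_at. Over all probe sets, 27.6% had the 2 low spike-in arrays wholly above or wholly below the other 4 and 12.2% wholly above, and among the members 8 of 20 did, 4 above and 4 below. On both low spike-in arrays the ACTB 3' minus 5' control value, a measure of RNA or cDNA integrity, was highest, at 1.32 and 1.48 against -0.04 to 0.64 on the other 4. Their 18S ribosomal RNA signal was the lowest, at 5.62 and 8.05 against 10.09 to 12.19. The part of spike-in level and RNA integrity in the TLR3 values was not tested.

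**Figure D2:**
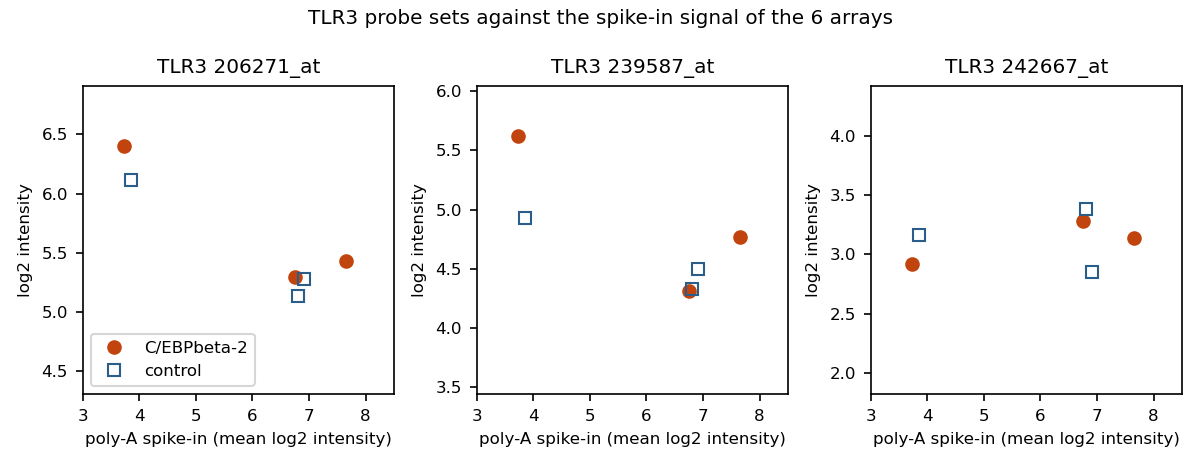
Log2 intensity of the 3 TLR3 probe sets (panels) against the mean log2 intensity of the poly-A spike-in probe sets, 1 point per array, with C/EBPbeta-2 as filled circles and control as open squares. In 206271_at and 239587_at the arrays near 3.73 and 3.86 on the horizontal axis lie above the other 4, and in 242667_at they do not.

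TLR4, the lipopolysaccharide receptor, and TLR6, which pairs with TLR2, gave low readings. All 4 TLR4 probe sets lay below the array median on all 6 arrays. The brightest of them, 1552798_a_at, read 3.74, 4.08 and 3.83 on the C/EBPbeta-2 arrays and 3.97, 3.82 and 3.75 on the control arrays. The groups overlapped, and the 4 differences ran from -0.03 to 0.03 (SE 0.15 to 0.19). LY96, the protein MD-2 that TLR4 needs to bind lipopolysaccharide, also lay below the median on every array and differed by 0.02 (SE 0.17). The 95% intervals of the 4 lay between -0.46 and 0.45, and smaller differences in TLR4 were not detectable. The intervals are not adjusted for the number of probe sets, so the test could miss larger differences too. At this low signal, how far they hold for TLR4 RNA was not tested.

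For TLR6, 239021_at read 4.34, 4.46 and 4.70 on the C/EBPbeta-2 arrays and 4.77, 4.53 and 4.81 on the control arrays. 207446_at read 4.18, 4.58 and 4.22 on the C/EBPbeta-2 arrays and 4.74, 4.42 and 4.39 on the control arrays. Both straddled the array medians with overlapping groups. They differed by -0.20 (SE 0.17) and -0.19 (SE 0.18), with limma adjusted p = 1.00 for each.

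MYD88, the adaptor shared by the interleukin-1 receptor and most Toll-like receptors, was well above the array median. Its probe set 209124_at read 9.39, 9.40 and 9.28 on the C/EBPbeta-2 arrays and 9.21, 9.33 and 8.54 on the control arrays. Control replicate 3 was the low one, and the other 5 arrays lay between 9.21 and 9.40. The difference was 0.33 (SE 0.24, 95% interval -0.24 to 0.89, limma adjusted p = 1.00), and without control replicate 3 it was 0.08.

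IRAK1, which is recruited by MyD88 and phosphorylated by IRAK4, overlapped between groups in both probe sets. 201587_s_at read 9.83, 9.88 and 10.37 on the C/EBPbeta-2 arrays and 9.31, 10.61 and 10.07 on the control arrays. 1555784_s_at read 5.47, 6.02 and 6.42 on the C/EBPbeta-2 arrays and 5.75, 6.57 and 6.23 on the control arrays. The highest array of both was control replicate 2. They differed by 0.03 (SE 0.35, 95% interval -0.80 to 0.87) and -0.22 (SE 0.31, 95% interval -0.97 to 0.53). Without control replicate 1 the first was -0.31, and without C/EBPbeta-2 replicate 1 the second was 0.033.

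IRAK2, a related kinase that also leads to TRAF6, had a higher mean with C/EBPbeta-2 at all 3 probe sets without being called. Its brightest probe set 231779_at read 4.89, 5.55 and 5.52 on the C/EBPbeta-2 arrays and 5.20, 5.10 and 4.50 on the control arrays. The groups overlapped through C/EBPbeta-2 replicate 1. The difference was 0.39 (SE 0.27, 95% interval -0.27 to 1.04, limma adjusted p = 1.00), but 0.17 without control replicate 3 and 0.60 without C/EBPbeta-2 replicate 1. The 2 dimmer probe sets lay below the array median on all 6 arrays. 1553739_at read 2.84, 2.79 and 2.78 with C/EBPbeta-2 and 2.68, 2.72 and 2.61 in control, without overlap but with a difference of only 0.13 (SE 0.13). 1553740_a_at read 3.85, 2.98 and 3.11 with C/EBPbeta-2 and 2.95, 3.39 and 3.36 in control, with overlapping groups. It differed by 0.08 (SE 0.27), but by -0.19 without C/EBPbeta-2 replicate 1.

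IRAK3, also called IRAK-M, has little or no kinase activity and restrains Toll-like receptor signalling. Its 3 probe sets lay below the array median on all 6 arrays. 1568830_at, the brightest, read 3.11, 3.25 and 3.22 with C/EBPbeta-2 and 3.23, 3.52 and 3.18 in control. The 3 differences were -0.12 (SE 0.16), -0.03 (SE 0.14) and -0.02 (SE 0.13), with overlapping groups in each. Their 95% intervals lay between -0.49 and 0.31, and smaller differences in IRAK3 were not detectable. As for TLR4, the test could miss larger differences too.

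**Figure D3:**
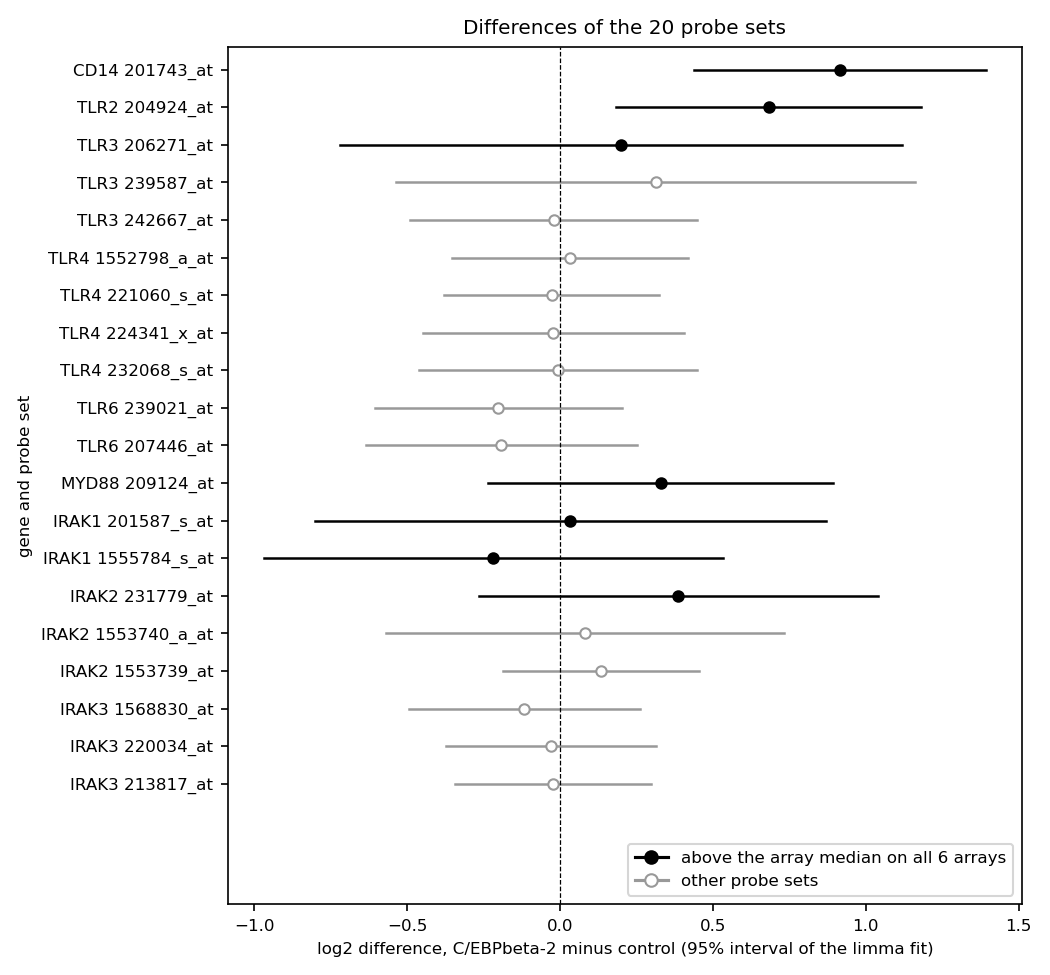
Log2 difference (C/EBPbeta-2 minus control, horizontal axis) of the 20 member probe sets with the 95% interval of the limma fit, filled where the probe set lay above the array median on all 6 arrays. The intervals of CD14 (0.44 to 1.39) and TLR2 (0.18 to 1.18) lie above 0 and the other 18 include it.

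Of all 20 member probe sets, 10 were higher and 10 lower with C/EBPbeta-2. Of the 7 member probe sets that lay above the median on all 6 arrays, 6 were higher with C/EBPbeta-2 and the median difference was 0.33. In 2 of the 7 all C/EBPbeta-2 arrays lay above all control arrays, where 4.71% of all probe sets at such levels did. Over all 22982 probe sets with that property, 12349 were higher and the median was 0.02. The 7 were CD14, TLR2, 206271_at of TLR3, MYD88, both of IRAK1 and 231779_at of IRAK2. Of the 6 higher, 206271_at of TLR3 (0.20) and 201587_s_at of IRAK1 (0.03) turned in at least 1 alternative. The 2 probe sets of IRAK1 had opposite signs. The 7 were described together after their values were seen, so they were not tested together.

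**Figure D4:**
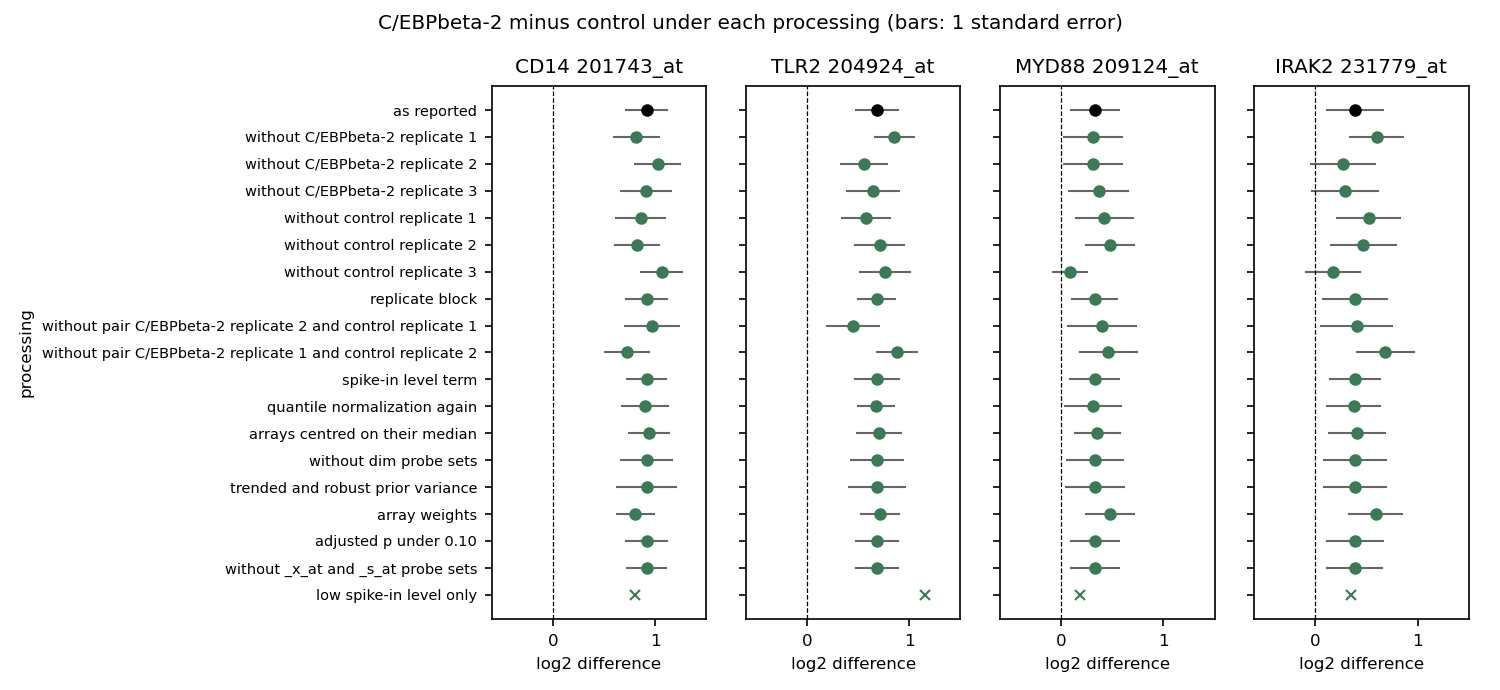
Log2 difference (C/EBPbeta-2 minus control) of CD14, TLR2, MYD88 and 231779_at of IRAK2 as reported (black) and under 18 other ways of processing (green), with bars of 1 standard error and crosses where the value has no error because it compares 1 array with 1. All values lie above 0, and without control replicate 3 those of MYD88 and IRAK2 are nearest to it (0.08 and 0.17). The replicate block, spike-in term, variance prior, threshold and leaving out of other probe sets cannot change these differences.

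The rest of the pathway was read in 58 of 62 listed genes, each at its brightest probe set. Limma called 1 of 58, IL1R2, which rose, and 0 fell, where 0.263% of all genes were called, 0.0961% higher and 0.167% lower. At an unadjusted p under 0.05, 5 were higher and 1 lower, where 5.4% of all genes passed in either direction and 2.66% higher. In 5 genes all C/EBPbeta-2 arrays lay above all control arrays and in 1 below, where 8.63% of all genes had no overlap and 4.62% lay above. The median difference of the 58 was 0.09, against 0.01 for all genes. IL1R2, the decoy receptor that binds interleukin-1 without signalling, read 13.48, 11.94 and 13.39 with C/EBPbeta-2 and 4.32, 4.25 and 5.04 in control (limma adjusted p = 0.00318). The ligand IL1B also rose, with 10.92, 10.69 and 11.10 on the C/EBPbeta-2 arrays and 5.81, 5.82 and 6.07 on the control arrays (limma adjusted p = 0.000695).

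The chains that carry the interleukin-1 signal to MyD88 were not called. IL1R1, the signalling receptor, read 7.02, 6.46 and 6.76 with C/EBPbeta-2 and 7.97, 5.31 and 6.35 in control. Control replicates 1 and 2 spanned all the C/EBPbeta-2 arrays, and the difference was 0.20 (SE 0.63), or -0.41 without control replicate 2 and 0.92 without control replicate 1. Its partner IL1RAP differed by 0.18 (SE 0.30), or -0.07 without C/EBPbeta-2 replicate 1. Among the 8 receptor chains IL1RL1, the interleukin-33 receptor, read 9.69, 6.54 and 9.27 with C/EBPbeta-2 and 5.31, 4.63 and 4.97 in control. Its difference of 3.53 (SE 0.80) was not called (limma adjusted p = 0.281), but it was 4.51 and called without C/EBPbeta-2 replicate 2 (limma adjusted p = 0.0117). IL18R1, an interleukin-18 receptor chain, differed by 2.64 (SE 0.38, limma adjusted p = 0.0813). It was called when dim probe sets were left out (limma adjusted p = 0.0479), with a trended and robust prior variance (limma adjusted p = 0.0358) and with array weights (limma adjusted p = 0.0382).

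Limma called 0 genes in each other list, where 0.263% of all genes were called. An unadjusted p under 0.05 was reached by 5.4% of all genes, beside which the counts of each list are given. Of the 6 other Toll-like receptors, 0 lay above the median on all arrays, and 0 passed an unadjusted p under 0.05. TLR1 differed by 0.38 (SE 0.39) and TLR9, a DNA receptor, by -0.32 (SE 0.23). TLR1, like TLR3, was highest where the spike-in signal was low, with 5.21 for C/EBPbeta-2 replicate 2 and 4.54 for control replicate 1. Without C/EBPbeta-2 replicate 2 its difference was -0.02. Of the 8 co-receptors and chaperones 5 were higher and 3 lower, with 0 at an unadjusted p under 0.05. The chaperone UNC93B1 differed by -0.36 (SE 0.27), -0.10 without C/EBPbeta-2 replicate 2, and the lipid receptor CD36 by 0.24 (SE 0.17). With a gene's probe sets averaged, UNC93B1 differed by -0.44 (SE 0.19) and CD36 by 0.03 (SE 0.14).

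The 3 other measured adaptors differed by -0.10 (TIRAP, which bridges TLR2 and TLR4 to MyD88), -0.08 (TICAM1) and -0.03 (SARM1), with 0 at an unadjusted p under 0.05. Among 16 ubiquitin ligases and kinases that act below IRAK, 11 were higher and 5 lower, with 1 at an unadjusted p under 0.05. That was IKBKE, a kinase of the interferon branch, which read 6.97, 6.80 and 6.85 with C/EBPbeta-2 and 6.25, 6.68 and 6.03 in control without overlap (0.55, SE 0.20, limma adjusted p = 0.772). The kinase MAP3K7, or TAK1, differed by 0.87 (SE 0.46), and by 0.35 without control replicate 2. With a gene's probe sets averaged, IKBKE differed by 0.41 (SE 0.18) and MAP3K7 by 0.39 (SE 0.22).

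Of 9 inhibitors, 4 were higher and 5 lower, with 1 at an unadjusted p under 0.05. NFKBIA, the inhibitor of NF-kappaB that is itself an NF-kappaB target, read 9.54, 9.64 and 10.27 with C/EBPbeta-2 and 10.38, 10.37 and 10.56 in control. All C/EBPbeta-2 arrays were below all control arrays, with a difference of -0.62 (SE 0.23, limma adjusted p = 0.772). With NFKBIA's probe sets averaged it was -0.46 (SE 0.16), and at another of its probe sets -0.31 (SE 0.30). TNFAIP3, the ubiquitin-editing enzyme A20, differed by 0.54 (SE 0.36), and by 0.20 without C/EBPbeta-2 replicate 2. Of 8 transcription factors 6 were higher, with 1 at an unadjusted p under 0.05, JUN (0.69, SE 0.28, limma adjusted p = 0.895). IRF5 differed by -0.52 (SE 0.24). With a gene's probe sets averaged, TNFAIP3 differed by 0.48 (SE 0.41) and JUN by 0.76 (SE 0.21).

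**Figure D5:**
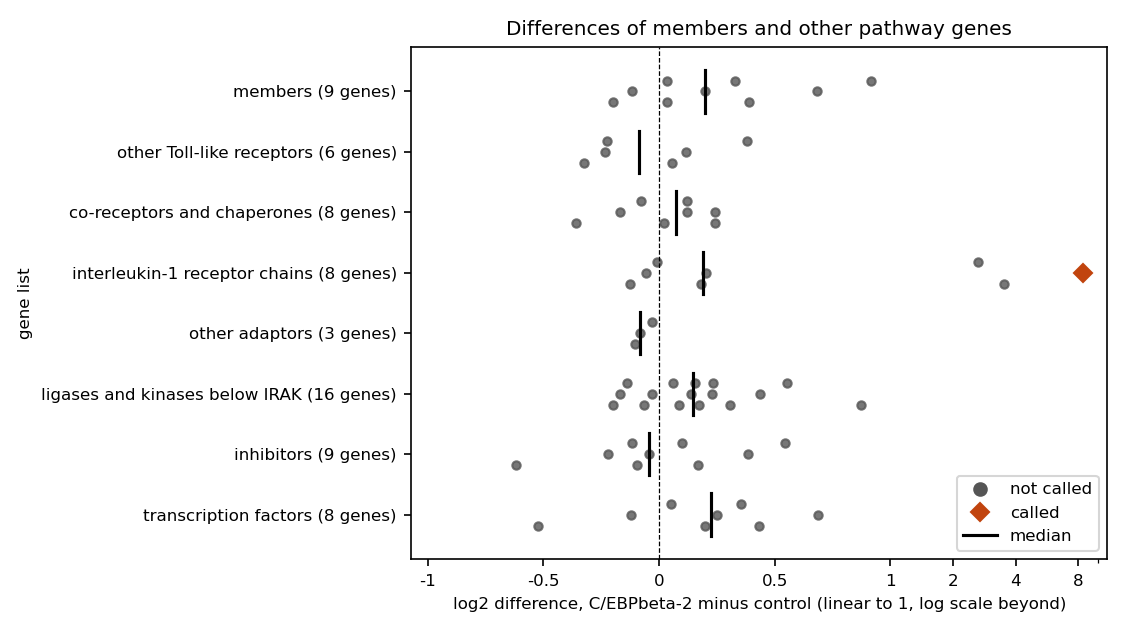
Log2 difference (C/EBPbeta-2 minus control, linear to 1 and on a log scale beyond) of the 9 measured members and of the other pathway genes by list, 1 point per gene, with the median of each list as a bar and called genes as diamonds. IL1R2, at 8.40, is the called gene, and the member furthest to the right is CD14 at 0.92.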

How the data were processed

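Gene expression was measured in 6 samples, 3 with C/EBPbeta-2 and 3 control, from 1.5 µg of total RNA, labelled with biotin for Affymetrix arrays per the labels' protocols. The deposited values are intensities on a linear scale (4.17 to 17825), 1 per probe set and array; RMA is named, without version or settings, per the submitters' processing notes. They were converted to log2 as they stood, without a pseudocount, and not normalized again. The 62 control probe sets were set aside. Of 54613 tested, 41091 had 1 gene symbol, 1801 several and 11721 none, and only those with 1 were named.

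Limma 3.58.1 in R 4.3.3 fitted the group difference, C/EBPbeta-2 minus control, on the 6 arrays jointly, once for all probe sets, without covariates and two-sided. The fit was tested on simulated data of independent normal values, which lack the patterns that arrays of both groups share here. P-values were adjusted (Benjamini-Hochberg) over all probe sets or, with each gene at its probe set of highest mean, over 19775 genes. Calls were made at an adjusted p under 0.05. Every member probe set was named, and from each pathway list the called genes and the 2 with the largest size of difference, with CEBPB and interleukin-1 genes beside them. LY96, SARM1, IL18R1 and the cell type markers lie outside this rule and were chosen after their values were seen. Members and lists were chosen with earlier results of these data known. The pathway lists hold other Toll-like receptors, co-receptors and chaperones, interleukin-1 receptor chains, other adaptors, ligases and kinases below IRAK, inhibitors and transcription factors. The fibroblast (6), luminal (5) and endothelial (4) marker lists held 0 called genes, with 1, 0 and 1 at an unadjusted p under 0.05. Python 3.11.15 searched promoters, and matplotlib 3.10.9 drew the plots. Alternatives left out arrays, added a replicate block or a spike-in term, and changed the normalization, filter, variance prior, weights, threshold and choice of probe sets.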

Additional observations from a re-analysis of the deposited data

How the results depend on the processing

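Under all alternatives 0 member probe sets were called, with 1 to 2 at an unadjusted p under 0.05, and the lowest adjusted p was 0.268 (limma). Of up to 54613 probe sets in these fits, 0 to 122 were called and 1384 to 3401 had an unadjusted p under 0.05. CD14, TLR2, both TLR6 probe sets, MYD88, and 231779_at and 1553739_at of IRAK2 kept their direction in each alternative, and the other 13 turned in at least 1. The replicate block, spike-in term, variance prior, threshold and leaving out of other probe sets could not change a member probe set's difference. Only the remaining alternatives could turn a direction. With 3 arrays a group and no stated background, small differences of dim probe sets were not detectable.

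The fit as reported called 36 probe sets, 52 genes and 1 pathway gene (limma). Leaving out an array, or a pair with 1 array of each group, gave 0 to 37 probe sets, 0 to 57 genes and 0 to 2 pathway genes. The 0 came without C/EBPbeta-2 replicate 1 and control replicate 2 together, where 2856 probe sets had an unadjusted p under 0.05. The pair of low spike-in arrays left out gave 6 probe sets, 13 genes and 2 pathway genes (IL1R2 and IL1RL1). Leaving out dim probe sets called 78 probe sets and 2 pathway genes, and a trended, robust prior 67 and 2. Array weights called 122 probe sets, 122 genes and 2 pathway genes, and an adjusted p under 0.10 called 92, 92 and 2. The 2 pathway genes of these last 4 settings were IL1R2 and IL18R1. Samples of the same number deviated together for replicate 3 (correlation 0.420) but not for replicates 1 and 2 (-0.453 and -0.553). The numbers thus do not pair all of them. C/EBPbeta-2 replicates 1 and 2 correlated best with control replicates 2 and 1 (0.637 and 0.659), which no label pairs. Replicate 3 of each group correlated best with the other. No fit used this crossed pairing, so the standard errors given do not take it into account. With a replicate block limma called 0 probe sets, 0 genes and 0 pathway genes, with 1701, 847 and 4 at an unadjusted p under 0.05.

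Leaving out an array or pair turned some differences, with ranges of -0.14 to 0.50 for TLR3 206271_at, -0.046 to 0.61 for TLR3 239587_at, -0.16 to 0.10 for TLR3 242667_at, -0.065 to 0.10 for TLR4 1552798_a_at and -0.085 to 0.049 for TLR4 221060_s_at. Further ranges were -0.14 to 0.064 for TLR4 224341_x_at, -0.10 to 0.14 for TLR4 232068_s_at, -0.31 to 0.44 for IRAK1 201587_s_at, -0.46 to 0.23 for IRAK1 1555784_s_at and -0.19 to 0.25 for IRAK2 1553740_a_at. Further ranges were -0.18 to 0.027 for IRAK3 1568830_at, -0.093 to 0.044 for IRAK3 220034_at, -0.043 to 0.0050 for IRAK3 213817_at, -0.018 to 0.64 for TLR1 and -0.19 to 0.068 for TIRAP. Further ranges were -0.22 to 0.17 for TICAM1, -0.55 to 1.06 for IL1R1 and -0.097 to 0.51 for IL1RAP. With each array centred on its median, the difference was 0.0026 for TLR3 242667_at, 0.0025 for TLR4 224341_x_at, 0.018 for TLR4 232068_s_at and 0.0015 for IRAK3 213817_at. With array weights it was 0.089 for TLR3 242667_at, 0.019 for TLR4 221060_s_at, 0.056 for TLR4 232068_s_at, 0.014 for IRAK1 1555784_s_at and 0.084 for TICAM1. It was also -0.084 for IL1R1 and -0.039 for IL1RAP. Between the 2 low spike-in arrays it was 0.064 for TLR4 221060_s_at, 0.060 for TLR4 232068_s_at, 0.26 for IRAK1 1555784_s_at and 0.017 for IRAK3 1568830_at. After a further quantile normalization it was 0.0013 for TLR4 232068_s_at. With a gene's probe sets averaged it was 0.045 for TIRAP. The causes were not tested.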
